A study of Mus musculus with 17 samples.

Results

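The NADPH oxidase subunits were examined in RNA sequencing of microvessels isolated from mouse brain cortex. They were the 9 genes Cybb, Cyba, Ncf1, Ncf4, Rac1, Rac2, Nox1, Nox4 and Noxo1, chosen by name and matched by symbol to Ensembl identifiers, and they make up 9 of the 42687 genes of the table. The mice were wild type (WT) or APP/PS1, a mouse model of Alzheimer's disease with transgenes for a mutant amyloid precursor protein and presenilin 1, and were 10 to 11 months old. All received a peptide at 10 mg/kg intraperitoneally every 2 days for 2 weeks, either gp91-ds-tat, an inhibitor of NOX2, or sgp91-ds-tat, named in the labels as the control. The 4 groups were WT with control peptide (WT_SC, 5 libraries), WT with inhibitor (WT_NOX2, 5 libraries), APP/PS1 with control peptide (APP_SC, 2 libraries) and APP/PS1 with inhibitor (APP_NOX2, 5 libraries). The groups are named after the label codes SC and NOX2, read here as control peptide and inhibitor. No untreated mice were analysed here, so every group carries a peptide. The labels describe the cells as endothelium, pericytes and astrocyte endfeet, taken from the ipsilateral cortex after surgery, and give no sex, strain, batch or pairing. They do not say whether a library is 1 mouse, so p-values measure the spread between libraries.

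NOX2 is the superoxide-producing oxidase of phagocytes, and it is also found in vessel walls and microglia. Its membrane core is a heterodimer of the catalytic subunit gp91phox (Cybb) and p22phox (Cyba), and it becomes active when cytosolic subunits, among them p47phox (Ncf1) and p40phox (Ncf4), join it together with a Rac GTPase. The gp91-ds-tat peptide carries a docking sequence of gp91phox and competes with that subunit for the binding of p47phox. It acts on the assembly of the enzyme, so the comparisons below ask how the transcripts of the subunits stood in each genotype and with each peptide.

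Total counts were between 7316503 and 17862965 per library. Of the genes that mark the labelled cells, those of endothelium summed to between 1855 and 3425 CPM (read counts divided by the TMM-scaled library size, on the usual CPM scale) and those of pericytes to between 972 and 1680.2 CPM. Astrocyte markers summed to between 2742 and 4750 CPM. Neuron markers, from cells outside the label, summed to between 2415 and 4096 CPM. Choroid plexus markers differed most between libraries, from 25.3 to 7986 CPM in WT and from 187 to 4673 CPM in APP/PS1. They were highest in WT_SC replicate 4, and whether this bears on the subunits was not tested. The genotype labels were checked on Prnp and App, since a common APP/PS1 strain expresses both transgenes from the Prnp promoter. Prnp was at 682 to 1418 CPM in the 7 APP/PS1 libraries and at 301 to 555 CPM in the 10 WT libraries, with no overlap. App was at 1897 to 3334 CPM in APP/PS1 and at 1262 to 2229.7 CPM in WT. These ranges overlapped: WT_SC replicate 1 (2229.7 CPM) was above APP_NOX2 replicates 1 and 4 (1897 and 2062 CPM). App differed by 0.73 on the log2 scale (edgeR adjusted p = 0.00631).

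All 9 subunits passed the filter on low counts and were tested. Ncf1 rose in APP/PS1 microvessels 1.61-fold (log2 change 0.68 ± 0.13, SE) and was the only subunit past the threshold in any comparison of the edgeR tests. The inhibitor moved 0 of the 9 subunits past the threshold in either genotype. The membrane subunits Cybb and Cyba and both Rac GTPases did not pass.

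The subunits lie on different chromosomes, and some share exon sequence with a gene on the opposite strand (annotation GENCODE vM21, build GRCm38, 1-based). Cybb lies at chrX:9435252-9487771 and Cyba at chr8:122424776-122432930, and neither shares exon bases with another gene. Ncf1 lies at chr5:134220053-134229625 and shares 11.1% of its exon bases with Gtf2ird2. Ncf4 lies at chr15:78244801-78262580, Rac2 at chr15:78559167-78572783 and Nox4 at chr7:87246096-87398710, all clear of other genes. Rac1, at chr5:143503634-143528036, shares 51.4% of its exon bases with Daglb. Nox1, at chrX:134086421-134221956, shares 12.1% with Cstf2, and Noxo1, at chr17:24696234-24700529, shares 70.4% with Tbl3. The library kit marks strand, but whether the counting used it is not given in the sources used here. Counts of Rac1, Ncf1, Nox1 and above all Noxo1 are therefore uncertain. Over the 17 libraries Gtf2ird2 had 3166 counts and Ncf1 had 1430, and Daglb had 14312 and Rac1 had 34795. Tbl3 had 3228 counts and Noxo1 had 502, whereas Cstf2 had 30859 and Nox1 had 129.

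Promoters are shown for the catalytic subunit and for the subunit that rose with genotype. Each runs from 250 bases before to 50 bases after the RefSeq gene start (build GRCm38.p6), is written 5′ to 3′ on the strand of the gene, and has GAGGAA, the core recognised by the myeloid factor PU.1, in capitals on either strand. The Cybb window is chrX:9469275-9469574 on the minus strand and starts from a RefSeq start inside the annotated gene, and the Ncf1 window is chr5:134229576-134229875 on the minus strand.
Cybb: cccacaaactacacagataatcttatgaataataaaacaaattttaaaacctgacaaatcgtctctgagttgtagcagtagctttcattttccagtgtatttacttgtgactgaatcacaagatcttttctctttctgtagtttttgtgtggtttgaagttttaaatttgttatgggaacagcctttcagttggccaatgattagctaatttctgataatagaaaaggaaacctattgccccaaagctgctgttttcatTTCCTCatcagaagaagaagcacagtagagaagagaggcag
Ncf1: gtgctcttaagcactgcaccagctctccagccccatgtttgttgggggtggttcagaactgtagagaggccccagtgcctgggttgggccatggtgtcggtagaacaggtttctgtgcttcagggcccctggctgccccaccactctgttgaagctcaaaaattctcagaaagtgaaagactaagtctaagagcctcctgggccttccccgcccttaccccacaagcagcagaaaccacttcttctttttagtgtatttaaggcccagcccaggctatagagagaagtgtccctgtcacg
Cybb holds 1 match, on the opposite strand and after the start. Ncf1 holds 0 in this window. Of the 6 subunits with a promoter in the table (Cyba, Cybb, Ncf1, Nox1, Nox4 and Noxo1), 2 held the motif, Cybb and Nox1, against 28.3% of all 32851 promoters. A match describes the letters and not a bound site.

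Levels of different genes were compared as CPM per kb of exon. Rac1, the widely expressed Rac, had the highest level at a mean of 36.8 CPM per kb, and it was above Cyba in 17 of 17 libraries. Cyba followed at 8.0 CPM per kb and was above Ncf1 in 17 of 17. Ncf1 averaged 1.86 CPM per kb and was above Cybb, at 0.996, in 14 of 17. Cybb was above Noxo1, at 0.809, in 12 of 17, so these neighbours did not separate in every library. Noxo1 was above Ncf4 in 15 of 17. Ncf4 and Rac2, at 0.509 and 0.505 CPM per kb, changed places from library to library, with Ncf4 above in 10 of 17. Rac2 was above Nox1, at 0.199, in 14 of 17, and Nox1 was above Nox4, at 0.068, in 15 of 17. Of these 2 Rac genes Rac1 was the higher, with the reservation above on its exons shared with Daglb: its level per kb was between 45.5 and 241 times that of Rac2, the Rac of blood cells, with a median of 75.9. Among the catalytic subunits, Cybb was above both other oxidases in every library, with median ratios per kb of 6.67 to Nox1 and 18.3 to Nox4. On the scale of CPM over all tested genes, Rac1 stood at percentile 94.7, Cyba at 37.0, Ncf1 at 33.5, Cybb at 30.9, Noxo1 at 18.8, Rac2 at 13.5, Ncf4 at 8.54, Nox1 at 3.37 and Nox4 at 2.03.

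**Figure D1:**
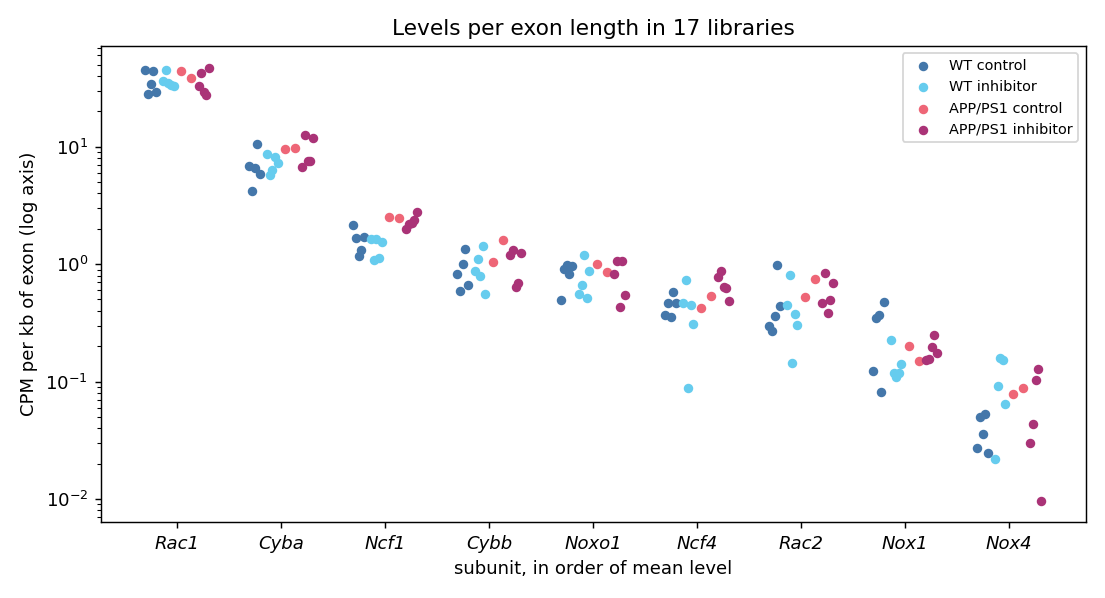
CPM per kb of exon (log axis) of each subunit, in the order of the mean level, with 1 point per library and 1 colour per group. Rac1 lies above every other subunit in all 17 libraries and Nox4 is the lowest by mean, at 0.068 CPM per kb.

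Cybb, the catalytic subunit, was at 4.74, 3.46, 5.79, 7.77 and 3.87 CPM in WT_SC and at 5.05, 6.42, 4.58, 8.32 and 3.26 CPM in WT_NOX2, in replicate order. It was at 6.0 and 9.40 CPM in APP_SC and at 7.01, 7.68, 3.69, 3.99 and 7.29 CPM in APP_NOX2. The highest value belonged to APP_SC replicate 2 and the lowest to WT_NOX2 replicate 5, and the groups overlapped, with 8 of 10 WT libraries above the lowest APP/PS1 library. Between the genotypes, over both peptides, Cybb had a log2 difference of 0.30 ± 0.21 (SE), with a 95% interval of -0.14 to 0.75, and did not pass (edgeR adjusted p = 0.909). The interval reaches from 0.908-fold to 1.68-fold, so a rise of the size found for Ncf1 lies inside it.

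Cyba encodes p22phox, which stabilises gp91phox and also serves Nox1 and Nox4. It was at 7.06, 4.40, 6.81, 11.0 and 6.07 CPM in WT_SC and at 8.98, 6.03, 6.64, 8.45 and 7.54 CPM in WT_NOX2. It was at 9.89 and 10.1 CPM in APP_SC and at 7.01, 13.2, 7.93, 7.80 and 12.4 CPM in APP_NOX2. The genotypes overlapped, with 5 of 10 WT libraries above the lowest APP/PS1 library. The log2 difference between genotypes was 0.42 ± 0.17 (SE), with an unadjusted edgeR p of 0.0212 and an adjusted p of 0.621, and it did not pass. Per kb, Cyba exceeded its partner Cybb by a median of 8.32 times, and by 5.25 to 12.9 times over the libraries.

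**Figure D2:**
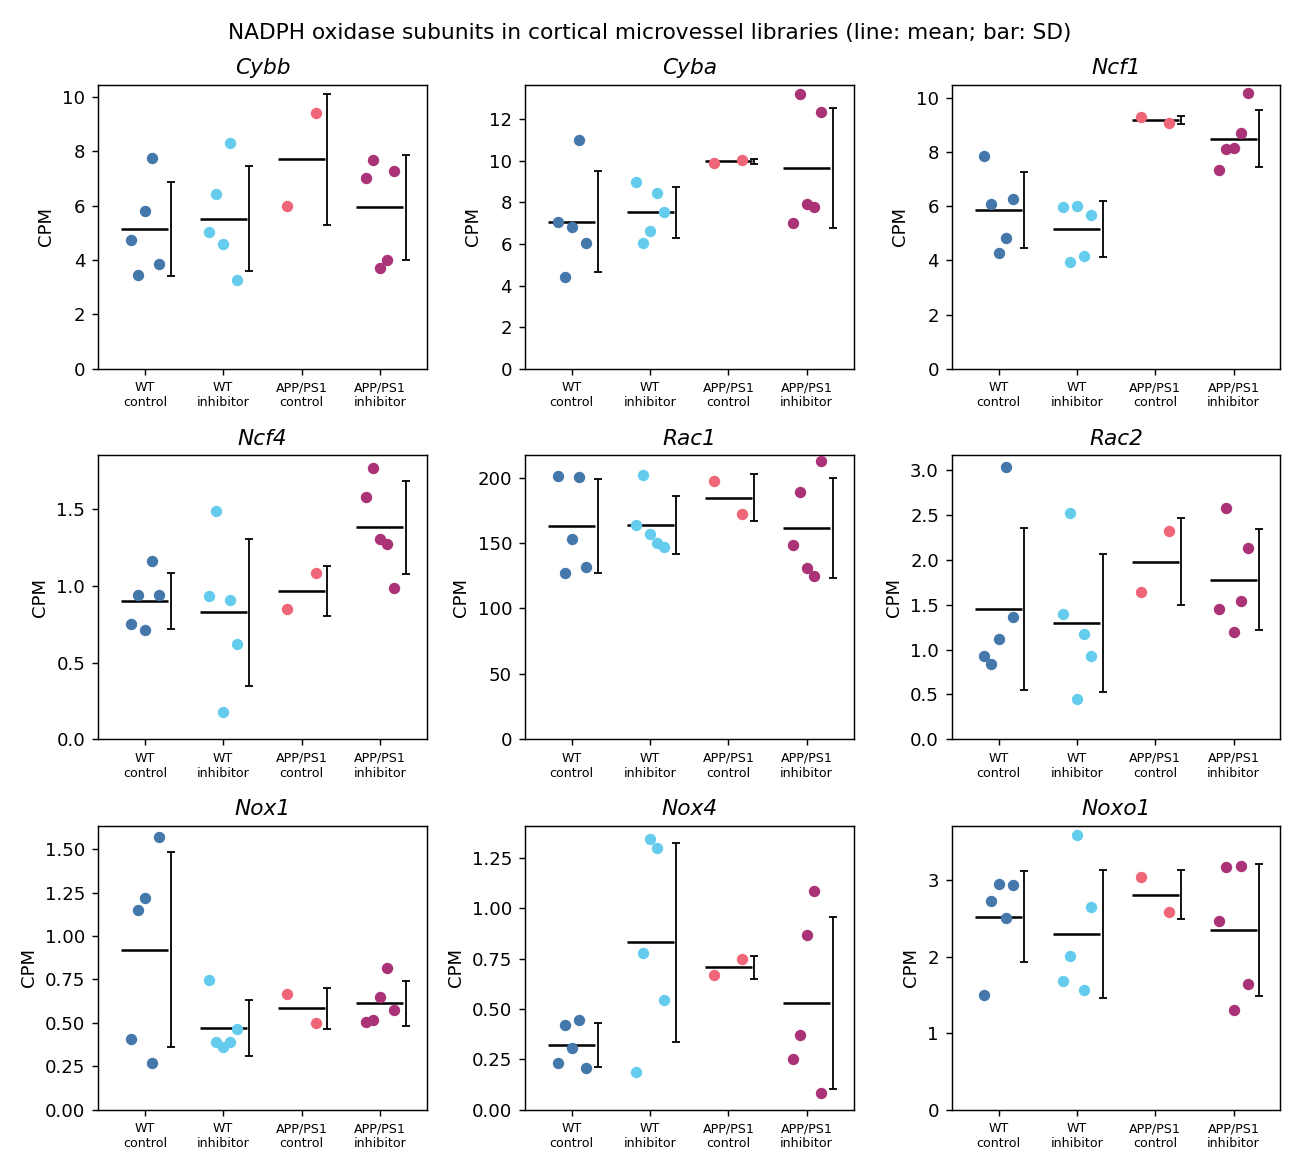
CPM of each subunit by group, on axes that start at 0, with 1 point per library, the mean as a line and the SD as a bar (n = 5, 5, 2 and 5). In Ncf1 the 7 APP/PS1 libraries sit between 7.33 and 10.2 CPM and the 10 WT libraries between 3.96 and 7.87 CPM, whereas the groups overlap more widely in the other subunits.

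Ncf1 encodes p47phox, the organiser that is phosphorylated and brings the cytosolic subunits to the membrane, and whose docking the peptide blocks. It was at 7.87, 6.08, 4.27, 4.82 and 6.28 CPM in WT_SC and at 5.98, 3.96, 6.01, 4.16 and 5.67 CPM in WT_NOX2. It was at 9.28 and 9.06 CPM in APP_SC and at 7.33, 8.12, 8.14, 8.71 and 10.2 CPM in APP_NOX2. The genotypes nearly separated: 1 WT library, WT_SC replicate 1, was above the lowest APP/PS1 library, APP_NOX2 replicate 1. The mean of Ncf1 was 5.51 CPM ± 1.21 (SD, n = 10) over the WT libraries. Over the APP/PS1 libraries it was 8.69 CPM ± 0.925 (SD, n = 7). Over both peptides the log2 change was 0.68, with a 95% interval of 0.42 to 0.95 and an edgeR adjusted p of 0.00975. This was 1 of 9 subunits, where 0.587% of the 18753 genes tested were called in this comparison (0.56% higher and 0.0267% lower). Ncf1 kept the call in all 17 fits that left out 1 library, with adjusted p-values of 0.00247 to 0.0338, and in all 5 other settings. The reservation above on its exons shared with Gtf2ird2 holds for this call. With each peptide alone the log2 differences were similar in size, 0.63 ± 0.21 (SE) with control peptide (edgeR adjusted p = 0.841) and 0.72 ± 0.17 (SE) with inhibitor (edgeR adjusted p = 0.173), and neither passed. The share of genes called was 0.0533% with control peptide and 0.181% with inhibitor (0.176% higher and 0.00533% lower). The second of these 2 comparisons passed in DESeq2, with an adjusted p of 0.0323. These comparisons share no libraries, and the test of the difference between them, the interaction, gave 0.08 ± 0.27 (SE).

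Ncf4 encodes p40phox, a cytosolic subunit that sustains the oxidase on phagosomes. It had 2 to 25 counts per library. It was at 0.752, 0.943, 0.711, 1.16 and 0.941 CPM in WT_SC, at 0.935, 1.49, 0.180, 0.910 and 0.622 CPM in WT_NOX2, at 0.849 and 1.08 CPM in APP_SC, and at 1.58, 1.77, 1.30, 1.27 and 0.983 CPM in APP_NOX2. The highest library was in APP_NOX2 and the lowest, WT_NOX2 replicate 3, had 2 counts, for which the exact Poisson interval is 0.242 to 7.22 counts. The log2 difference between genotypes was 0.49 ± 0.28 (SE) and did not pass (edgeR adjusted p = 0.84).

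Rac1 was at 201, 127, 153, 200.4 and 132 CPM in WT_SC and at 164, 202, 157, 150.2 and 147 CPM in WT_NOX2. It was at 197 and 172 CPM in APP_SC and at 149, 189, 131, 125 and 213 CPM in APP_NOX2. The groups overlapped over nearly their whole range, and 10 of 10 WT libraries were above the lowest APP/PS1 library. With 1156 to 3481 counts per library this was the most deeply measured subunit, and its genotype difference had the narrowest interval, -0.21 to 0.31 around 0.05 on the log2 scale (edgeR adjusted p = 0.997). Rac2 had 5 to 39 counts. It was at 0.926, 0.838, 1.12, 3.04 and 1.36 CPM in WT_SC, at 1.4, 2.53, 0.449, 1.17 and 0.932 CPM in WT_NOX2, at 1.64 and 2.33 CPM in APP_SC, and at 1.45, 2.58, 1.19, 1.54 and 2.13 CPM in APP_NOX2. The highest library was WT_SC replicate 4, and the APP/PS1 libraries fell inside the WT range. The genotype difference of Rac2 was 0.43 ± 0.31 (SE) on the log2 scale and did not pass (edgeR adjusted p = 0.909).

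Nox1, Nox4 and Noxo1 belong to other oxidases. NOX1 is a superoxide-producing oxidase of colon epithelium and vascular smooth muscle that uses the organiser Noxo1, a homologue of p47phox, and NOX4 is a constitutively active oxidase that releases hydrogen peroxide. By the rule that a gene is too low to judge when its median is under 3 counts in every group, 0 of the 9 subunits was too low. Nox4 and Nox1 had the fewest counts. Nox4 had 1 to 15 counts, with 3 libraries under 3 counts, a floor that corresponds to 0.174 to 0.390 CPM. Nox1 had 3 to 15 counts, and a count of 3 has an exact Poisson interval of 0.619 to 8.77. These limits describe counting error alone. They take each count as a separate molecule, which cannot be checked because no molecular identifiers separate PCR copies of a molecule.

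Noxo1 was at 1.5, 2.72, 2.95, 2.50 and 2.93 CPM in WT_SC, at 1.68, 2.01, 3.59, 1.56 and 2.64 CPM in WT_NOX2, at 3.03 and 2.58 CPM in APP_SC, and at 2.46, 3.17, 1.30, 3.18 and 1.64 CPM in APP_NOX2. The groups overlapped, and the genotype difference was 0.09 ± 0.21 (SE) on the log2 scale (edgeR adjusted p = 0.997). Nox1 was at 0.405, 1.15, 1.22, 0.268 and 1.57 CPM in WT_SC, and at 0.748, 0.389, 0.359, 0.390 and 0.466 CPM in WT_NOX2. It was at 0.667 and 0.499 CPM in APP_SC and at 0.505, 0.517, 0.651, 0.817 and 0.574 CPM in APP_NOX2. WT_SC held both the highest and the lowest libraries, and the 7 APP/PS1 libraries fell inside its range. Nox4 was at 0.231, 0.419, 0.305, 0.447 and 0.209 CPM in WT_SC, and at 0.187, 0.778, 1.35, 1.30 and 0.544 CPM in WT_NOX2. It was at 0.667 and 0.748 CPM in APP_SC and at 0.253, 0.369, 0.869, 1.09 and 0.0819 CPM in APP_NOX2. In WT, 4 of the 5 libraries with inhibitor were above all 5 with control peptide, and the fifth was below them. The genotype differences, -0.02 ± 0.35 (SE) for Nox1 and -0.04 ± 0.45 (SE) for Nox4, had intervals of -0.75 to 0.71 and -0.98 to 0.91 on the log2 scale, which leave room for changes of the size seen in Ncf1 in either direction.

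The spread between libraries of 1 group was set against that of counting alone. The chi-square of the counts around their group means, divided by its 13 degrees of freedom, was 1.5 for Ncf4, 1.63 for Nox1, 2.44 for Nox4, 2.60 for Ncf1, 2.73 for Noxo1, 4.66 for Rac2, 6.88 for Cyba, 6.93 for Cybb and 74.2 for Rac1, where counting alone gives about 1. At the same relative spread this ratio grows with the mean count, so it does not rank the subunits by spread. The within-group coefficient of variation of CPM was 16.5% for Ncf1, the lowest of the 9, against 33% for Cybb and 26.5% for Cyba with similar counts. It was 19.3% for Rac1 and 63.6% for Nox4, the highest. The subunit that passed had the smallest relative spread and the largest genotype difference. The test weighs that difference against the spread of these same libraries, so this describes the call and is no separate finding.

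The inhibitor comparisons ask whether transcripts of the 9 subunits moved with treatment. Of these, Nox1, Nox4 and Noxo1 belong to other oxidases than NOX2. In WT 0 of 9 subunits passed in edgeR and in DESeq2, and 0% of all genes were called in edgeR. At an unadjusted edgeR p under 0.05 there were 252 of the 18753 genes, where about 938 are expected if no gene differs. Of the 9 subunits 2 were among them, Nox4 with a log2 difference of 1.33 (interval 0.15 to 2.50, unadjusted p = 0.0292) and Nox1 with -0.90 (interval -1.79 to -0.01, unadjusted p = 0.048). Neither passed after adjustment (edgeR adjusted p = 1.00 for both). In APP/PS1 0 of 9 passed in edgeR and in DESeq2 and 0 had an unadjusted p under 0.05, with 0% of all genes called. The log2 differences there ran from -0.48 for Nox4 to 0.54 for Ncf4. Cybb had -0.35 ± 0.34 (SE) and Ncf1 -0.11 ± 0.21 (SE) in APP/PS1, and they had 0.09 ± 0.28 (SE) and -0.20 ± 0.17 (SE) in WT. For Ncf1 the intervals were -0.56 to 0.33 in APP/PS1 and -0.56 to 0.17 in WT, so on the fold scale changes to less than 0.680-fold or 0.679-fold were outside them. Over both genotypes 0 of 9 passed, with 0 at an unadjusted p under 0.05 and 0% of all genes called. The interaction of genotype and inhibitor gave 0 of 9 in edgeR and in DESeq2, again with 0 at an unadjusted p under 0.05 and 0% of genes called; its largest value was -1.81 ± 0.87 (SE) for Nox4, with an unadjusted p of 0.0513. The genotype comparison with control peptide and the inhibitor comparison in APP/PS1 share the 2 APP_SC libraries, and those of WT share WT_SC or WT_NOX2 in the same way.

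**Figure D3:**
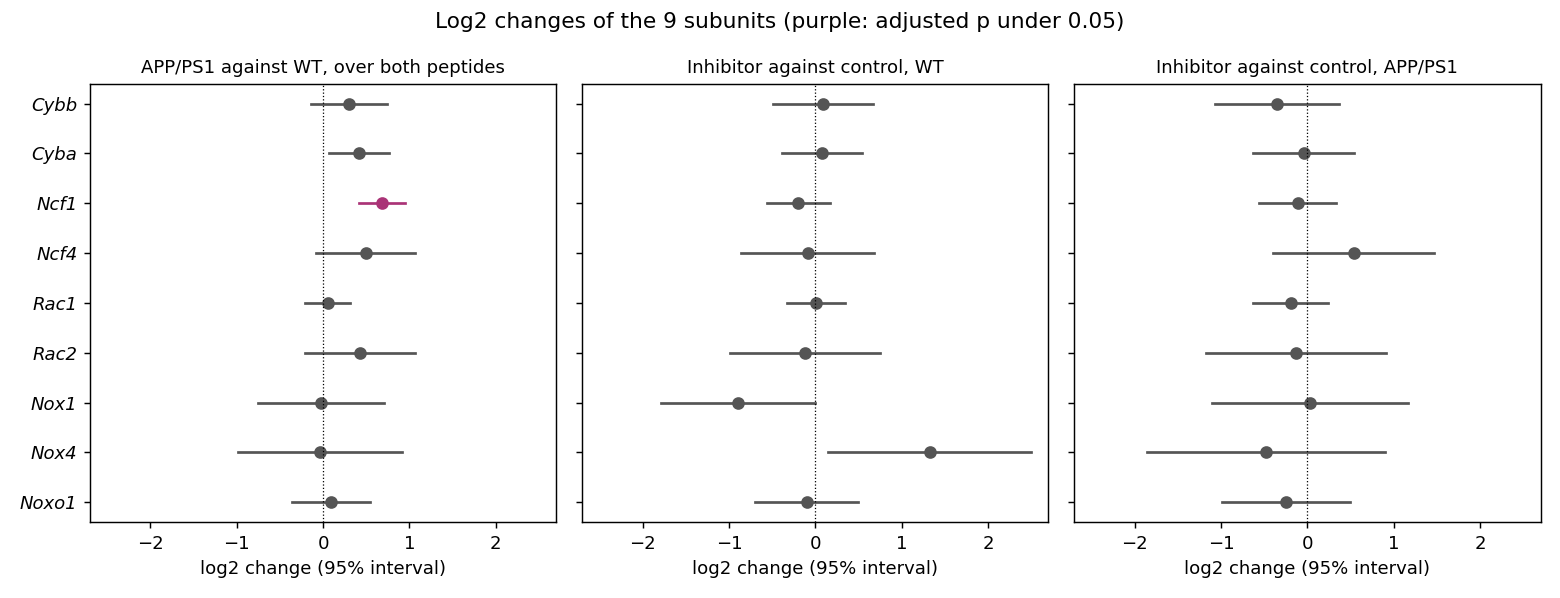
Log2 differences of the 9 subunits with 95% intervals from edgeR, for genotype over both peptides and for inhibitor against control peptide in each genotype. The interval of Ncf1 in the genotype panel runs from 0.42 to 0.95 and is the one past the adjusted threshold, and the intervals of Nox1 and Nox4 are the widest in each panel.

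The other genes of the pathway were read from 3 lists. Of 11 oxidase partners, 5 passed the filter, and 1 rose in APP/PS1 and 0 fell over both peptides, where 0.56% of all genes tested rose and 0.0267% fell. Hvcn1, the voltage-gated proton channel that balances the charge moved by the oxidase, rose by 0.92 ± 0.16 (SE, edgeR adjusted p = 0.00442). It was at 1.62 to 3.22 CPM in the 10 WT libraries and at 3.80 to 6.74 CPM in the 7 APP/PS1 libraries, without overlap, as were 0.267% of the genes tested in that direction. Sh3pxd2b, an organiser-like scaffold, had a log2 difference of 0.27 ± 0.07 (SE) and did not pass (edgeR adjusted p = 0.0765). The 6 not tested were Nox3, Noxa1, Duox1, Duox2, Duoxa1 and Duoxa2, which had at most 5 counts in any library.

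Of 14 regulators of Rac, all were tested, 1 rose and 0 fell, beside 0.56% and 0.0267% of all genes. This was Dock2, a Rac exchange factor of leukocytes, which rose by 0.74 ± 0.10 on the log2 scale (SE, edgeR adjusted p = 0.000594) and stood at 7.84 to 13 CPM in WT and 15.0 to 21.3 CPM in APP/PS1. Vav1, another exchange factor of blood cells, had 0.53 ± 0.13 (SE, edgeR adjusted p = 0.0982), and Rhog had 0.32 ± 0.15 (SE, edgeR adjusted p = 0.774). Of 17 genes that phosphorylate the cytosolic subunits or signal upstream, 16 were tested, 3 rose and 0 fell, beside the same 0.56% and 0.0267% of all genes. They were the kinase Btk (log2 change 0.87, edgeR adjusted p = 0.0148), the integrin chain Itgb2 (0.77, 0.0187) and the kinase Syk (0.44, 0.0282). Btk lost the call without APP_SC replicate 2 (adjusted p = 0.116). Itgb2 lost it without WT_NOX2 replicate 5, APP_SC replicate 2 or APP_NOX2 replicate 2 (0.0533 to 0.133). Syk lost it without WT_NOX2 replicate 2, 4 or 5, APP_SC replicate 2, or APP_NOX2 replicate 2, 4 or 5 (0.0537 to 0.133), and also with no filter on low counts (0.0566). The median log2 difference between genotypes was 0.30 over the 9 subunits, 0.01 over the oxidase partners tested, 0.06 over the Rac regulators and 0.11 over the upstream genes, beside 0.00 over all genes tested. Inhibitor effects gave 0 calls in all 3 lists in edgeR.

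Markers of microglia and astrocytes had members that rose in APP/PS1 in the same comparison. All 5 (Aif1, P2ry12, Tmem119, Cx3cr1 and Csf1r) had positive log2 differences between genotypes, 3 of them past the threshold (0.587% of all genes were called), with a median of 0.66. Their summed level was 118 to 154 CPM in WT_SC, 119 to 161 CPM in WT_NOX2, 203 and 251 CPM in APP_SC, and 139 to 263 CPM in APP_NOX2. The 5 astrocyte markers also all had positive differences, with a median of 0.19, and 1 passed: Gfap, a filament protein of reactive astrocytes (log2 change 1.20, edgeR adjusted p = 0.000125). Their summed level was 2742 to 4041 CPM in WT and 2848 to 4750 CPM in APP/PS1. The 5 fibroblast, 4 smooth muscle and 4 oligodendrocyte markers were also all positive, with medians of 0.17, 0.15 and 0.10 and 0 past the threshold. The 4 choroid plexus markers were all negative (median -0.56), and the other lists with more than 1 gene tested were mixed. The part of microglia and astrocytes in the rise of Ncf1, Hvcn1 and Dock2 was not tested. In such bulk samples, more cells of a type and more RNA per cell cannot be told apart.

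**Figure D4:**
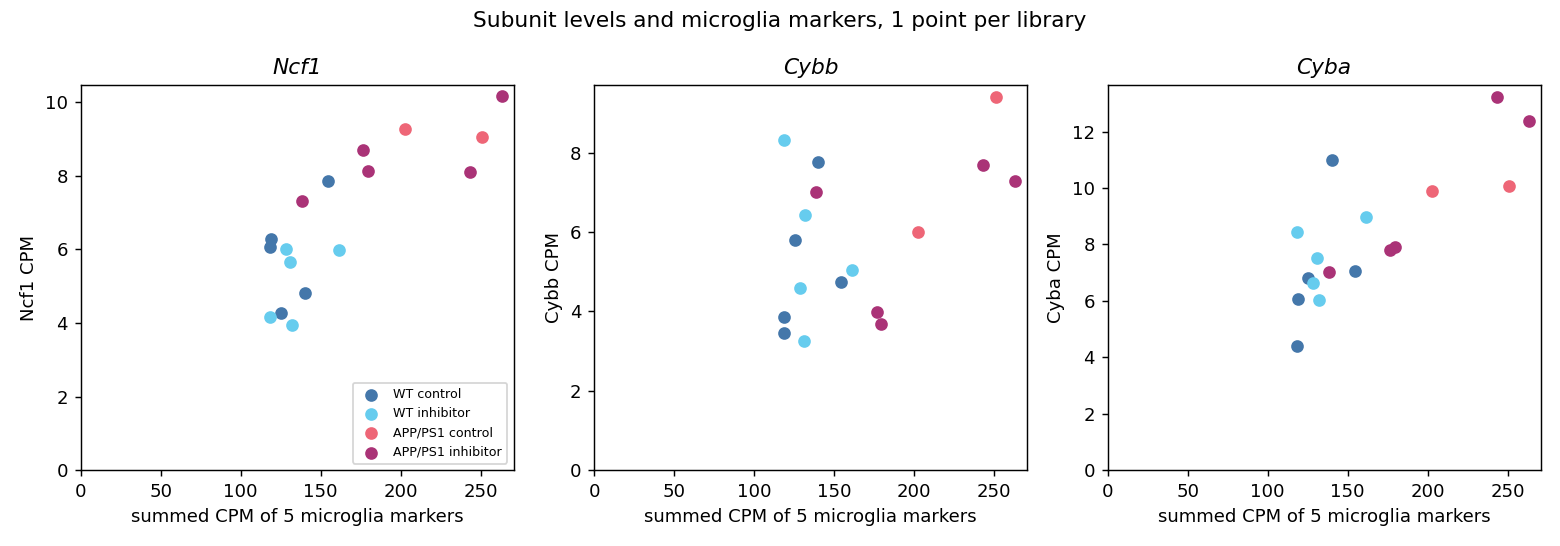
CPM of Ncf1, Cybb and Cyba against the summed CPM of 5 microglia markers, with 1 point per library and 1 colour per group, on axes that start at 0. The APP/PS1 libraries lie at 139 to 263 CPM of microglia markers and the WT libraries at 118 to 161 CPM, and Ncf1 is at 7.33 CPM or more in all 7 APP/PS1 libraries.

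Neutrophils, the blood cells richest in NOX2, were read from 9 markers. These summed to 9.62 to 26.9 CPM in WT and 22.5 to 37.3 CPM in APP/PS1, and 6 of the 9 could be tested. Only Csf3r passed for genotype (log2 change 1.04, edgeR adjusted p = 4.27e-05), where 0.56% of all genes tested rose. It was at 8.19 to 16.7 CPM in WT and 21.1 to 28.2 CPM in APP/PS1, without overlap, as were 0.267% of genes in that direction. Csf3r made up most of the sum, and which cells its counts came from was not tested. Ly6g had 0 counts in every WT library and at most 1 in an APP/PS1 library, and Camp had at most 6. Of the 6 tested, 5 had positive log2 differences between genotypes, with a median of 0.63. S100a8 and S100a9 had log2 differences of -0.37 ± 0.54 and 0.12 ± 0.57 (SE). Markers of perivascular macrophages summed to 38.5 to 113 CPM in WT and 41.5 to 81.5 CPM in APP/PS1, with 0 of 6 past the threshold for genotype in edgeR. Monocyte and lymphocyte markers summed to at most 4.08 and 2.95 CPM in any library.

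The genes whose levels were most like those of each subunit were taken from Pearson correlations of log2 CPM over the 17 libraries, as a description. The libraries differ in depth and cell makeup, and how common such correlations are over all genes was not examined. For Cybb they were Rbms3, Samd9l and Sp100 (r = 0.94, 0.91 and 0.90), and Rbms3 stayed the first when group means were subtracted. For Ncf1 they were 2610203C22Rik, Gm13391 and Prnp (r = 0.88 for each), all 3 past the threshold for genotype. With group means subtracted, Ncf1 was most like Matn2, Surf1 and Slc30a3 (r = 0.91, 0.88 and 0.84), so that no gene was in both sets. For Cyba they were Fmnl3, Ctsz and Ror2 (r = 0.90, 0.90 and 0.89), and for Rac1 they were Gnai2, Ece1 and Jcad (r = 0.97, 0.96 and 0.96). For Rac2 they were Pou2af1, Ddx58 and Pde8a (r = 0.90, 0.88 and 0.88), and with group means subtracted the first was Ptprc (r = 0.94). For Ncf4 they were Mki67, Ighm and Pou2af1 (r = 0.82, 0.81 and 0.81). The correlations were lower for Nox1 (Dnah5, Gm27243 and C030038I04Rik, r = 0.80, 0.79 and 0.79), Nox4 (Rnf34, Gm13112 and Spats2l, r = 0.79, 0.76 and 0.72) and Noxo1 (Best1, Far2os2 and Gm10643, r = 0.74, 0.73 and 0.73). No subunit was among the 3 genes most like another subunit.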

How the data were processed

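RNA of isolated cortical microvessels was sequenced in 17 libraries. The authors deposited raw counts per Ensembl gene. The submitters' processing notes name cutadapt, STAR, HTSeq and DESeq2 and the builds mm10 and GRCh37, without roles or versions; the annotation, strand setting and filters are not given in the sources used here. A further 20 columns matched no sample and were not used. Symbols matched 42250 of 42687 identifiers. Replicates were numbered in sample order, and 0 of 136 library pairs were identical. Counts of same-group pairs differed by a chi-square of at least 5.04 times its degrees of freedom, so each library was counted once.

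Genes were kept by filterByExpr (18753 genes), scaled by TMM and tested with edgeR 4.0.16 (R 4.3.3) quasi-likelihood F tests, two-sided, with Benjamini-Hochberg adjustment over all genes and a threshold of 0.05. One mean per group gave the 4 simple comparisons and the interaction; the effects over both peptides or both genotypes came from a fit with the 2 factors as main effects. All 17 libraries entered each fit. Standard errors come from the estimate and its F statistic, and intervals are 95%. Log2 CPM used a prior count of 2, and exon lengths are unions of GENCODE vM21 exons. The scripts were tested on simulated data.

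The text names all subunits, the 3 genes most like each subunit, App, Prnp and cell type markers. Listed pathway genes are named if they passed or were among at most the 3 smallest p-values of their list for genotype over both peptides. Of the oxidase partners tested, only Hvcn1 and Sh3pxd2b are named. Members and lists were chosen with earlier results of these data known. Alternatives were DESeq2 size factors, DESeq2 1.42.0, 2 other filters, robust dispersion, only the groups compared, and leaving out each library. A partner gene and a marker gene of the lists are not reported here.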

Additional observations from a re-analysis of the deposited data

Results flagged for a closer look

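In groups of 5, the highest or lowest library of each subunit was set against the others by Dixon's ratio, with a 95% critical value of 0.71. Of 27 comparisons, 2 stood apart, where 1.35 are expected by chance (about 1 in 20). Rac2 was at 3.04 CPM (34 counts) in WT_SC replicate 4, against 0.838 to 1.36 CPM in the rest of its group (ratio 0.763). The same library had the highest Cybb, Cyba and Ncf4 of its group, at 7.77, 11.0 and 1.16 CPM, and the highest choroid plexus marker sum of all libraries, 7986 CPM, whose part in these values was not tested. Without it, the log2 difference of Rac2 between inhibitor and control peptide in WT was 0.34, against -0.12 with all libraries, and it passed in neither fit. Nox1 was at 0.748 CPM in WT_NOX2 replicate 1, against 0.359 to 0.466 CPM in the other libraries of its group (ratio 0.725). That value rests on 8 counts against 3 to 6.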

How the results depend on the processing

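Ncf1 was the 1 subunit called for genotype over both peptides in all 22 alternatives, with log2 changes of 0.63 to 0.74. With DESeq2, 1 subunit, Ncf1, was also called for genotype with inhibitor, against 0 in edgeR. All other counts of subunits called stayed at 0. Over all genes, DESeq2 called 182, 45 and 61 genes for genotype over both peptides, with control peptide and with inhibitor, against 110, 10 and 34 in edgeR; leaving out 1 library gave 70 to 125, 4 to 17 and 15 to 38. Some differences near 0, none of them called, changed sign, and the cause was not tested. Rac1 with inhibitor in WT (0.01) was -0.0010 with DESeq2 size factors, -0.00088 with DESeq2 and -0.00020 with only the groups compared. The interaction of Rac2 (-0.01) was 0.0024 with DESeq2 size factors, 0.0046 without a filter, 0.0067 with the filter at 1 CPM and 0.010 with DESeq2. Leaving out 1 library gave log2 ranges that cross 0. For genotype over both peptides these were -0.013 to 0.11 for Rac1, -0.12 to 0.13 for Nox1 and -0.22 to 0.19 for Nox4. For genotype with control peptide it was -0.076 to 0.27 for Ncf4, and with inhibitor -0.011 to 0.31 for Cybb, -0.14 to 0.063 for Rac1 and -0.098 to 0.25 for Noxo1. For inhibitor in WT these were -0.091 to 0.28 for Cybb, -0.048 to 0.29 for Cyba, -0.47 to 0.17 for Ncf4, -0.077 to 0.098 for Rac1 and -0.57 to 0.34 for Rac2. For inhibitor in APP/PS1 they were -0.18 to 0.063 for Cyba, -0.37 to 0.13 for Rac2 and -0.14 to 0.27 for Nox1. For inhibitor over both genotypes they were -0.20 to 0.063 for Cybb, -0.046 to 0.15 for Cyba, -0.0024 to 0.32 for Ncf4 and -0.36 to 0.12 for Rac2. For the interaction they were -0.33 to 0.0055 for Cyba, -0.061 to 0.17 for Ncf1, -0.47 to 0.44 for Rac2 and -0.27 to 0.063 for Noxo1. Where an APP_SC library was left out, the lone library was assumed to vary like the other groups. Subtracting group means left at most 1 of the 3 most alike genes for 8 of the 9 subunits. No paired analysis was possible because the labels give no replicate numbers shared between groups.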
